A study of Homo sapiens with 9 samples.

Results

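Mechanosensitive ion channels open when the membrane around them is stretched, bent or pulled on, and let calcium, sodium or potassium ions through, so that a cell can read the stiffness of the surface it grips. The transcripts of 10 channel genes with a reported role in this sense, PIEZO1, PIEZO2, TRPV4, TRPM7, TRPC1, PKD1, PKD2, TMEM63A, TMEM63B and KCNK2, were followed here in human hTERT-RPE1 cells, an immortalised line of the retinal pigment epithelium. The genes were picked by symbol, and all 10 were found among the 26475 genes of the table of estimated read counts. All cells had been transduced with a lentiviral vector and stood for 24 h on a fibronectin coat. Control cells carried the empty pLKO vector (named a control shRNA in another label) and grew on glass. The sh_PIP4K2B cells also grew on glass and carried a hairpin against PIP4K2B, a kinase of the phosphoinositide lipids of the membrane, with 1 library for each of hairpins #1, #2 and #3. Soft cells carried the empty vector and grew on a gel of 2.3 kPa. There were 3 libraries a group, so that the sh_PIP4K2B group mixes the hairpin with the spread between cultures, and nothing in the labels says that the libraries of a group came from separate experiments.

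Background on the families helps to order the values. PIEZO1 and PIEZO2 are large stretch-gated cation channels, PIEZO1 of epithelia, vessels and blood cells and PIEZO2 mainly of sensory neurons. TRPV4, TRPM7 and TRPC1 are cation channels of the transient receptor potential family, of which TRPM7 carries a protein kinase at its end. PKD1 encodes the receptor-like polycystin-1 and PKD2 the channel polycystin-2, partners at the primary cilium whose loss causes polycystic kidney disease. TMEM63A and TMEM63B are the animal relatives of the plant osmosensitive OSCA channels, and KCNK2 encodes the stretch-opened potassium channel TREK-1.

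Library totals lay between 19217346 and 24020799 counts, and levels are given as TMM-normalised read counts in CPM, which scales each count to the size of its library. The floor of detection was set at 3 counts a library, which corresponded to 0.131 to 0.148 CPM. The replicates differed in tightness: the median SD of a gene's log2 CPM was 0.08 in Control, 0.07 in Soft and 0.36 among the hairpins. PIP4K2B itself stood at 123, 124 and 120 CPM in Control and at 48.4, 40.9 and 36.6 CPM with hairpins #1, #2 and #3, a fall of 1.54 on the log2 scale (SE 0.12, adjusted p = 0.00038, edgeR), and at 119, 122 and 127 CPM in Soft. Of 14 markers of the pigment epithelium, 2 or 3 reached 1 CPM in all libraries of a group. RPE65, LRAT, TYR, DCT, TTR and CRX were at or near 0, while MITF and OTX2 averaged 36.5 and 10.9 CPM in Control. Of 10 mesenchymal markers 7, and of 8 epithelial markers 4, reached 1 CPM in all Control libraries. VIM and FN1 averaged 8590 and 27600 CPM there and the epithelial KRT8 and KRT18 1080 and 902 CPM. The mesenchymal COL1A2, COL3A1 and S100A4 averaged 0.705, 0.553 and 0.433 CPM in Control. The channel levels are therefore those of RPE1 cells as cultured, which lacked most transcripts that define pigment epithelium.

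Of the 10 channel genes, 8 were expressed in every library, with 136 counts or more. TRPV4 lay close to the floor on glass, not above it with hairpin #1, and PIEZO2 was close to absent from the counts. PIEZO2 had counts of 0, 0 and 0 in Control, 1, 1 and 7 with hairpins #1, #2 and #3 and 0, 1 and 3 in Soft, so that only the library of hairpin #3 passed the floor, and the gene was not tested. TRPV4 had 4, 6 and 4 counts in Control, 3, 4 and 4 with the hairpins and 32, 37 and 36 in Soft. It passed the filter on low counts (10 counts in 3 libraries) only through the Soft libraries, where it was high, so its place among the 9 genes tested was fixed by that group.

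PIEZO1 was the most abundant channel transcript on the scale of CPM per kb of the canonical transcript. In Control it averaged 53.4 ± 2.79 CPM per kb (SD, n = 3), ahead of TMEM63B at 22.1 ± 0.822 and PKD2 at 19.9 ± 1.21. TMEM63A (7.96 ± 0.694) and PKD1 (7.9 ± 0.365) followed and did not differ beyond their spread, and TRPM7 (5.27 ± 0.418), KCNK2 (4.03 ± 0.279) and TRPC1 (2.75 ± 0.304) came next, with TRPV4 at 0.0645 ± 0.0149. This order rests on the length of 1 canonical transcript per gene. By plain CPM, PIEZO1 was first in Control as well (432), but PKD1 (112) and PKD2 (101) stood above TMEM63B (72.7). On that scale PIEZO1 was above 97.4% of the 13784 genes tested in Control and TRPV4 above 1.48%.

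In Soft the order among the less abundant genes was another one. KCNK2 (8.33 ± 0.843 CPM per kb) stood above TRPM7 (3.32 ± 0.152) there, where Control had them the other way round. By plain CPM KCNK2 (32.3 ± 3.26) did not stand above TRPM7 (34.4 ± 1.58) in Soft. Per kb, PKD1 (11.5 ± 0.506) and TMEM63A (11.3 ± 0.272) again lay within their spread. Among the hairpins PKD2 (21.5 ± 0.314) and TMEM63B (20.4 ± 3.79) could not be told apart, nor could KCNK2 (3.38 ± 1.56) and TRPC1 (2.73 ± 1.0), nor, as neighbours, PKD1 (7.78 ± 1.15), TMEM63A (6.9 ± 1.04) and TRPM7 (6.22 ± 0.906). PIEZO1 stayed first in all 3 groups.

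The summed level of the 10 genes per kb was 127, 121 and 122 in Control and 122, 127 and 128 in Soft, which overlap, while its make-up was not the same. PIEZO1 supplied 42.4 to 44.8% of the sum in Control and 27.0 to 29.1% in Soft. The share of TMEM63B was 17.4 to 18.3% in Control and 22.6 to 23.6% in Soft, that of PKD2 14.9 to 17.3% and 19.4 to 20.4%, and that of KCNK2 2.96 to 3.52% and 5.81 to 7.26%. None of these 4 pairs of ranges overlapped, nor did those of the other tested members. Levels in Soft and Control did not overlap for 79.4% of all genes tested. With the hairpins the sum was 93.8, 112 and 117, below the lowest Control library in each case, and PIEZO1 supplied 30.7 to 41.1%. A share falls when another member's rises, so these are descriptions of the mixture and carry no test.

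**Figure D1:**
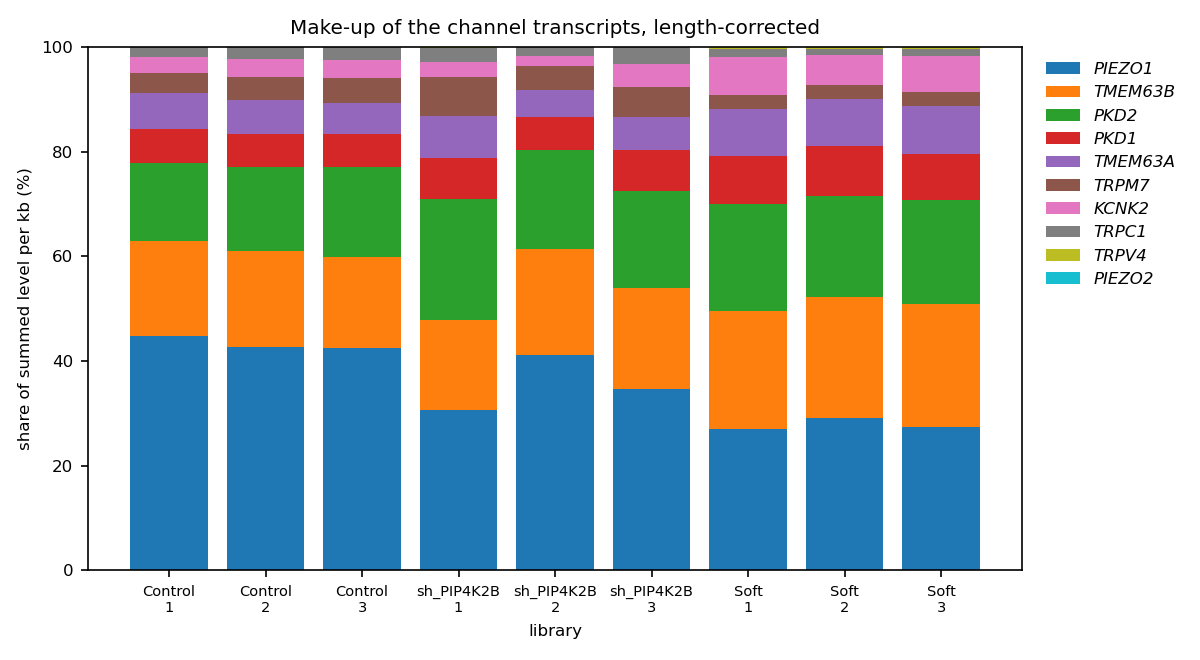
Share of each channel gene in the summed level of the 10 genes (y axis, per cent of CPM per kb of transcript) in each of the 9 libraries (x axis). The PIEZO1 segment covers 42.4 to 44.8% in the Control libraries and 27.0 to 29.1% in the Soft libraries, and the PIEZO2 segment is too thin to see.

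The stretches in front of the start sites are shown for PIEZO1 and TRPM7, whose levels were lower in Soft, and for KCNK2, whose level was higher. The difference of PIEZO1 did not pass the test in Soft (adjusted p = 0.0125, edgeR). Each stretch is the 250 bases before a RefSeq start site (GRCh38.p14), on the strand of the gene, in lower case. GGAATG, the core element bound by TEAD factors, is in capitals where it is present. KCNK2 has 2 start sites in that table, and gene counts do not show which one the cells used.
PIEZO1, chr16:88785221-88785470, minus strand: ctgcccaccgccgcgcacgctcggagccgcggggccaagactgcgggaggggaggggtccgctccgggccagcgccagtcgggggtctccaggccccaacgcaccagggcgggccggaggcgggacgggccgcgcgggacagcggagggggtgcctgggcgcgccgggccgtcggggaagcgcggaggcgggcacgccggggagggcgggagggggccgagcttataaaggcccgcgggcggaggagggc
TRPM7, chr15:50686798-50687047, minus strand: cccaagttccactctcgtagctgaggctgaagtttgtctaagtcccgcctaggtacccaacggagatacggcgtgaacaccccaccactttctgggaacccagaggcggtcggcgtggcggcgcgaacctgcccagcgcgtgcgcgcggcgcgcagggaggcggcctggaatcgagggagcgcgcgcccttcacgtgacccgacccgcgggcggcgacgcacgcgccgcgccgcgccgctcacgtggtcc
KCNK2, first start, chr1:215005292-215005541, plus strand: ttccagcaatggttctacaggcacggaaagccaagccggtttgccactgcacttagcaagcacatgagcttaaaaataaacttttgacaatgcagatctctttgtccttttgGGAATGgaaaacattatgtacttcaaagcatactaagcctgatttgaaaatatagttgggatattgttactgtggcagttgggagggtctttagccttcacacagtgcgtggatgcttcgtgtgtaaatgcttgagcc
KCNK2, second start, chr1:215082487-215082736, plus strand: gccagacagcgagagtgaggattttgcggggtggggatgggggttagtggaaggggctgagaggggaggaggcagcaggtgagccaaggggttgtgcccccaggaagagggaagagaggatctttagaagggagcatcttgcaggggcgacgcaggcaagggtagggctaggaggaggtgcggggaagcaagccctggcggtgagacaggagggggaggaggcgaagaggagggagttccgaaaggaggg

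The stretches differ in base composition. G and C make up 81.2% of the bases before PIEZO1, 70.8% before TRPM7, 42.8% before the first KCNK2 start and 63.6% before the second. Among members with higher levels in Soft, the share was 79.2% before PKD1, 78.4% before PKD2 and 72.8% before TMEM63A. It was 46.4% and 77.2% before the TMEM63B starts. Before the starts of TRPC1, whose level was lower in Soft, it was 61.2% and 41.2%. The share therefore did not separate the members by direction. GGAATG was searched on both strands along with TGANTCA, the element of AP-1 factors, and the CArG box of serum response factor. The search covered 11 start sites of 8 members. GGAATG lay before 3 of them, beginning 138 bases before the first KCNK2 start, 218 bases before PKD2 and 250 bases before a TMEM63B start, against 11.9% of 35116 RefSeq promoters of the same length. The windows of PKD2 and of that TMEM63B start also overlap exons of other genes. TGANTCA and the CArG box were in none of the 11 windows and in 6.57% and 1.16% of all promoters. These are matches of letters and no evidence of binding.

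In sh_PIP4K2B cells none of the channel genes passed the test. Of the 9 genes tested, 0 had an adjusted p below 0.01 (edgeR), against 5.54% of all 13784 genes tested (2.76% higher and 2.77% lower). At a threshold of 0.05 it was 0 of the 9 as well, beside 2375 of the 13784 genes. DESeq2 also called 0 of the 9, and 2066 of the 13784 genes. The median log2 fold change was -0.12 over the 9 genes and 0.05 over all genes tested. Levels in the 2 groups did not overlap for 1 of the 9, PIEZO1, and for 34.1% of all genes. On soft gels, 4 of the 9 passed, against 30.6% of all genes tested, and 3 of 8 when TRPV4, which passed the filter only through the Soft libraries, is set aside. TRPV4, KCNK2 and PKD1 rose (15.8% of all genes did) and TRPM7 fell (14.8%). The median log2 fold change of the 9 was 0.39, against 0.01 over all genes, and individual values ran from -0.71 to 2.92.

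All 9 tested genes differed between the Soft and Control libraries without overlap, 6 above and 3 below, as did 79.4% of all genes tested. The 6 include TRPV4, which entered the test only through the Soft libraries. The fit pools the spread of the 9 libraries, hairpins included. When the 6 libraries of Soft and Control were fitted alone, 9 of 9 channel genes passed, beside 70.7% of the genes tested in that fit. In these bulk libraries a lower share of cells with a transcript cannot be told apart from less of it per cell. Other markers moved as well. The summed level of 8 epithelial markers was 2030 to 2180 CPM in Control, 830 to 1280 CPM with the hairpins and 989 to 1040 CPM in Soft, with EPCAM and CDH1 near 0 throughout. KRT8, KRT18 and CLDN1 fell in Soft and KRT18 fell with the hairpins. Of the 4 epithelial markers tested, all 4 had values below 0 in Soft, but with the hairpins 2 lay above 0 and 2 below. The 2 above were CLDN1 (1.46, adjusted p = 0.037, edgeR) and TJP1 (0.21, adjusted p = 0.334), and neither passed. Of 10 mesenchymal markers 4 rose in Soft and 0 fell, with 5 values above 0, 5 below 0 and a median log2 fold change of 0.02. The pigment epithelium genes OTX2 and BEST1 rose in Soft (1.77 and 2.23 on the log2 scale), and OTX2 also rose with the hairpins. BEST1 lay near the floor, at mean levels of 0.147 CPM in Control and 0.719 CPM in Soft, and needed the Soft libraries to pass the filter. Of the 5 pigment epithelium markers tested, 4 had values above 0 in Soft and 1, MITF, below 0 (-0.49, adjusted p = 0.0259, edgeR). The part of all these markers in the channel values was not tested.

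**Figure D2:**
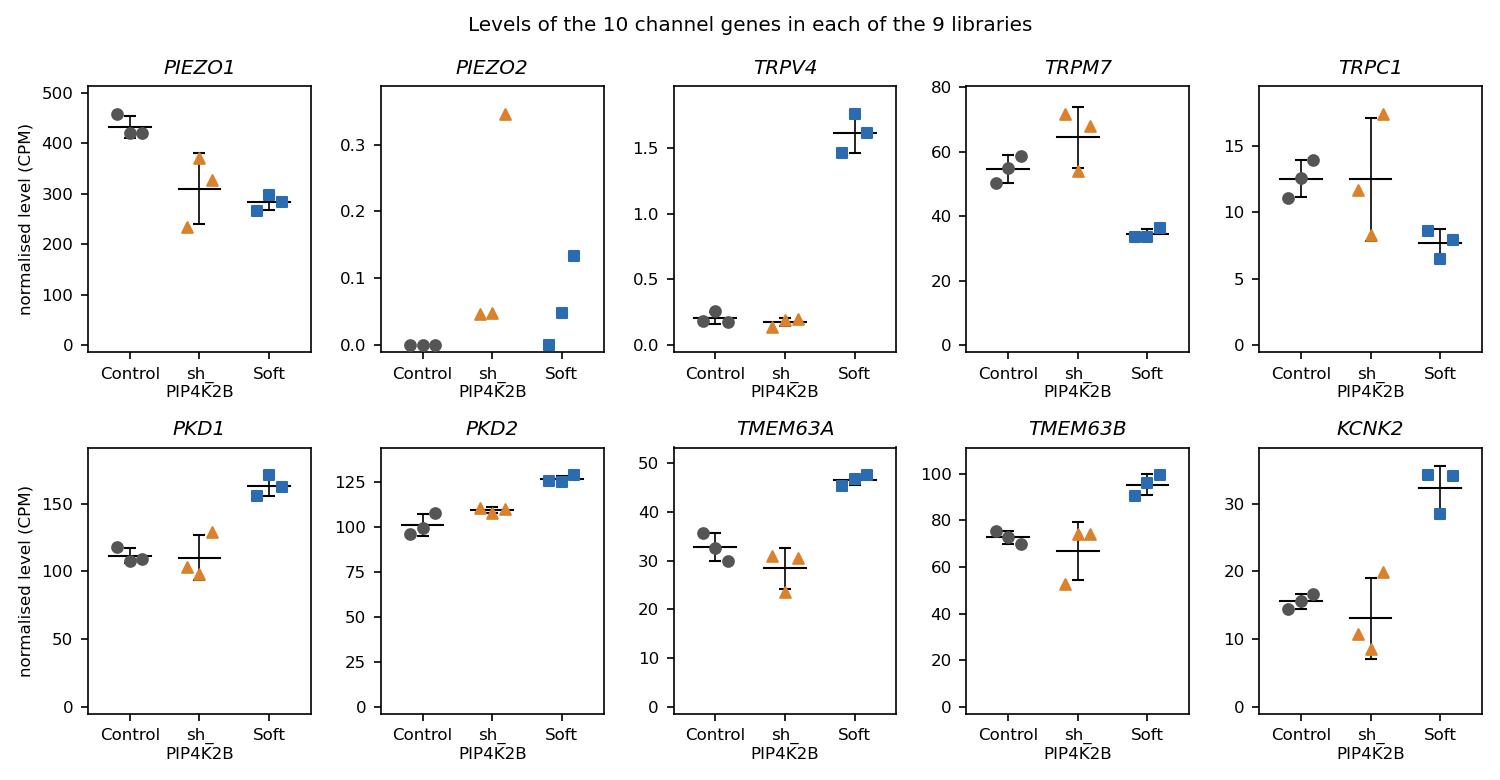
Normalised level in CPM (y axis, from 0 and on its own scale for each gene) of the 10 channel genes in the 3 libraries of each group (x axis). Points are libraries, lines the group means and bars the SD; PIEZO2 is drawn without a mean because its counts lie near the floor. All 9 other genes have Soft points that lie wholly above or wholly below the Control points.

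PIEZO1, on chromosome 16 (GRCh38, 88715338 to 88785220, minus strand, 51 exons), stood at 458, 419 and 420 CPM in Control, at 233, 371 and 326 CPM with hairpins #1, #2 and #3 and at 266, 298 and 284 CPM in Soft. Every hairpin and every Soft library lay below the lowest Control library. The means were 432 ± 22.6 CPM in Control, 310 ± 70.4 with the hairpins and 283 ± 16.2 in Soft (SD, n = 3 each). In sh_PIP4K2B this came to -0.48 on the log2 scale (SE 0.16, adjusted p = 0.0717, edgeR). In Soft it came to -0.61 (SE 0.16) with an adjusted p of 0.0125 (edgeR), so neither difference passed 0.01. In sh_PIP4K2B it passed in none of 17 other fits, at log2 values of -0.63 to -0.31. The adjusted p there was 0.0223 with DESeq2 and ran from 0.0141 to 0.209 (both edgeR) over these fits. The lower level in Soft did pass with DESeq2 (adjusted p = 0.000932), in the fit of Soft and Control alone (8.8e-09, edgeR) and in edgeR fits without hairpin #1 (adjusted p = 0.000285), #2 (0.00441) or #3 (0.00989). Soft and sh_PIP4K2B differed by -0.13 on the log2 scale, with a 95% interval from -0.50 to 0.23, which includes 0. Exons of CTU2 overlap PIEZO1 on the other strand, and whether the counting used strand is not given in the sources used here.

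The TRP channels did not move together. TRPV4 (chromosome 12, 109783087 to 109833406, minus strand), a calcium-permeable channel that answers to swelling and warmth, stood at 0.186, 0.263 and 0.175 CPM in Control, 0.138, 0.193 and 0.198 CPM with the hairpins and 1.46, 1.76 and 1.61 CPM in Soft. The Soft libraries held 105 counts together and the Control libraries 14, a ratio of 7.71 after scaling, with a 95% interval of 4.4 to 14.6 that covers counting error only. TRPV4 was tested only because its Soft libraries were high, and a minimum of 10 counts in every library removes it. With that limit, its log2 fold change in Soft was 2.92 (SE 0.29, adjusted p = 7.98e-05, edgeR). This was the largest of the 9, from a level near the floor to a low one. With the hairpins it was -0.24 (SE 0.38, adjusted p = 0.791, edgeR), with a 95% interval from -1.09 to 0.61 that leaves room for a change in either direction.

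TRPM7 (chromosome 15, 50552473 to 50686797, minus strand, 39 exons), the channel and kinase that carries magnesium, zinc and calcium, went the other way. It stood at 50.2, 55.1 and 58.8 CPM in Control, 71.8, 53.9 and 67.9 CPM with the hairpins and 33.6, 33.5 and 36.3 CPM in Soft. Soft lay below both other groups, whereas the hairpin and Control libraries overlapped. It fell by 0.67 on the log2 scale in Soft (SE 0.13, adjusted p = 0.00234, edgeR), a level 1.59-fold lower, and was 0.24 in sh_PIP4K2B (SE 0.13, adjusted p = 0.219, edgeR). The call in Soft was lost in fits without Control replicate 2 or 3 or without Soft replicate 1 or 2 (adjusted p = 0.012 to 0.0143, edgeR), at log2 values of -0.62 to -0.67. Of the 75-base stretches of TRPM7, 3.12% also occur in other genes, among them a protein-coding gene that overlaps it on the same strand.

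TRPC1 (chromosome 3, 142724034 to 142807888, plus strand), a subunit of cation channels linked to emptied calcium stores, was the least abundant of the 8 genes expressed throughout. It stood at 11.1, 12.6 and 13.9 CPM in Control, 11.7, 8.29 and 17.4 CPM with the hairpins and 8.57, 6.48 and 7.91 CPM in Soft. The hairpins spread to both sides of Control, and their log2 fold change was -0.01 (SE 0.24, adjusted p = 0.981, edgeR) with a 95% interval from -0.56 to 0.54. In Soft it was -0.71 (SE 0.25, adjusted p = 0.0404, edgeR), which did not pass, although it did without hairpin #3 (adjusted p = 0.00711, edgeR).

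Of the polycystin pair, PKD1 passed the test on the gel and PKD2 did not. PKD1 (chromosome 16, 2088708 to 2135898, minus strand, 46 exons) stood at 118, 108 and 109 CPM in Control, 103, 98.4 and 129 CPM with the hairpins and 156, 171 and 162 CPM in Soft, where it rose by 0.55 on the log2 scale (SE 0.12, adjusted p = 0.00481, edgeR), or 1.46-fold. PKD2 (chromosome 4, 88007635 to 88077777, plus strand) stood at 96.1, 99.5 and 108 CPM in Control, 111, 108 and 110 CPM with the hairpins and 126, 125 and 129 CPM in Soft. Its log2 fold change in Soft was 0.33 (SE 0.09, adjusted p = 0.0145, edgeR) and did not pass, although it did in edgeR fits without hairpin #1, #2 or #3 (adjusted p = 0.00388, 0.00699 and 0.00564). For both genes the Soft libraries lay above every other library.

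The counts of PKD1 are less certain than those of its partner. Of its 75-base stretches, 21.9% also occur in other genes, its pseudogene copies among them. Of those copies PKD1P1 and PKD1P6 were in the table. PKD1P1 stood at 107, 98.9 and 92.8 CPM in Control and 122, 117 and 114 CPM in Soft, with a log2 fold change of 0.24 (SE 0.13, adjusted p = 0.158, edgeR), and PKD1P6 had 0.19 (SE 0.20, adjusted p = 0.45). TSC2 and PKD1-AS1 overlap PKD1 on the other strand. The call of PKD1 was lost in edgeR fits without any one of Control replicates 1, 2 and 3 or Soft replicates 1, 2 and 3 (adjusted p = 0.0156 to 0.028), at log2 values of 0.51 to 0.58. The ratio of PKD1 to PKD2 per kb was 0.364 to 0.441 in Control, 0.329 to 0.422 with the hairpins and 0.445 to 0.492 in Soft, so that Soft stood above both.

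With the hairpins neither polycystin gene passed, PKD1 at -0.02 (SE 0.12, adjusted p = 0.916, edgeR) and PKD2 at 0.11 (SE 0.09, adjusted p = 0.41, edgeR). Their 95% intervals were -0.29 to 0.24 and -0.09 to 0.31.

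Neither TMEM63 gene passed the test against Control, though the libraries of both did not overlap between Soft and glass. TMEM63A (chromosome 1, 225845536 to 225882380, minus strand) stood at 35.7, 32.5 and 30 CPM in Control, 31, 23.5 and 30.6 CPM with the hairpins and 45.3, 46.8 and 47.5 CPM in Soft. TMEM63B (chromosome 6, 44126914 to 44155519, plus strand) stood at 75.3, 72.9 and 69.9 CPM in Control, 52.7, 74.3 and 74.1 CPM with the hairpins and 90.4, 96.1 and 99.4 CPM in Soft. The Soft libraries were the 3 highest for each gene. Against Control TMEM63A differed by 0.51 on the log2 scale in Soft (SE 0.13, adjusted p = 0.0102, edgeR), which missed 0.01 narrowly, and TMEM63B by 0.39 (SE 0.14, adjusted p = 0.0404). TMEM63A passed in edgeR fits without hairpin #1, #2 or #3 (adjusted p = 0.00476, 0.0018 and 0.00737) and TMEM63B without hairpin #1 (0.00134). With the hairpins TMEM63A was at -0.21 (SE 0.13, adjusted p = 0.3, edgeR), TMEM63B at -0.12 (SE 0.14, adjusted p = 0.591). The ratio of TMEM63A to TMEM63B per kb was 0.343 to 0.379 in Control and 0.382 to 0.401 in Soft, and it ran from 0.252 with hairpin #2 to 0.471 with hairpin #1. EPHX1 overlaps TMEM63A on the other strand.

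KCNK2 (chromosome 1, 215005775 to 215237090, plus strand, 7 exons), whose channel TREK-1 lets potassium out and holds the membrane potential down, had the largest difference among the 8 genes expressed throughout. It stood at 14.5, 15.6 and 16.7 CPM in Control, 10.8, 8.53 and 19.9 CPM with the hairpins and 34.2, 28.5 and 34.1 CPM in Soft. It rose 2.07-fold in Soft, by 1.05 on the log2 scale (SE 0.26, adjusted p = 0.00996, edgeR), and every Soft library lay above every library on glass. That call sits at the threshold: it was lost in edgeR fits without any one of Control replicates 1, 2 and 3 or Soft replicates 1, 2 and 3, with adjusted p of 0.021 to 0.0414 and log2 values of 0.99 to 1.13. With the hairpins its log2 value differed from Control by -0.26 (SE 0.27, adjusted p = 0.542, edgeR), with hairpins #1 and #2 below Control and hairpin #3 above it. This value hung on single hairpins, at -0.03 without hairpin #2 and -0.69 without hairpin #3 (adjusted p = 0.0102, edgeR).

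**Figure D3:**
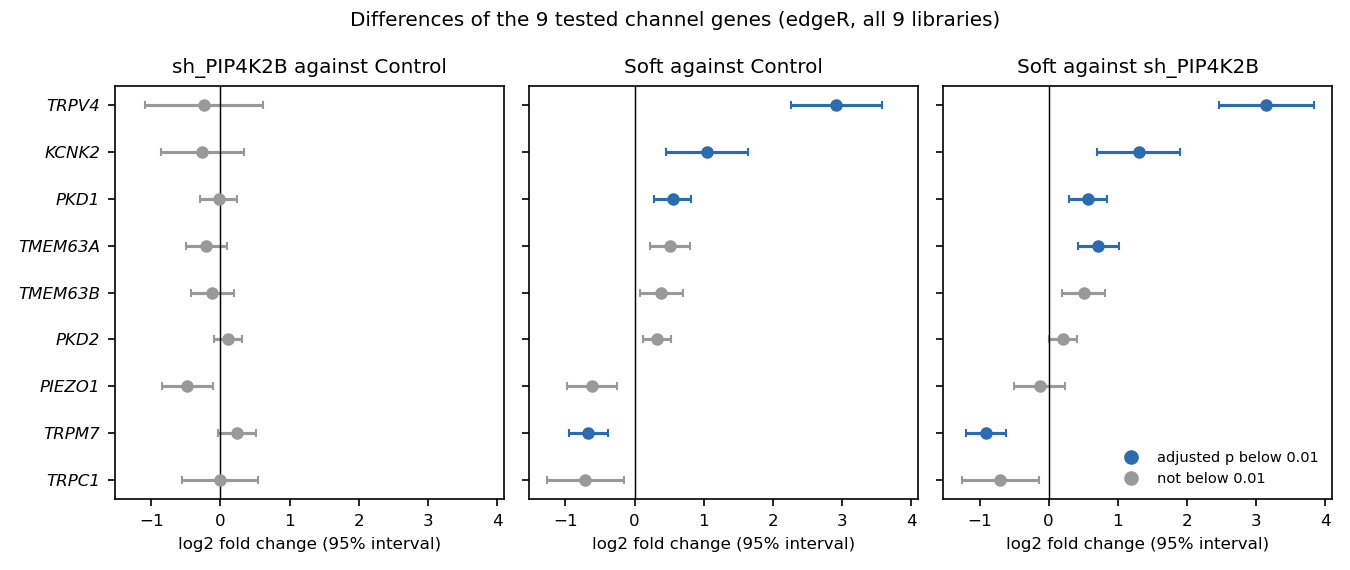
Log2 fold change (x axis) of the 9 tested channel genes (y axis) in the 3 comparisons, with 95% intervals as bars and an adjusted p below 0.01 in blue. TRPV4, KCNK2 and PKD1 lie to the right and TRPM7 to the left in Soft against Control, and no gene is blue in sh_PIP4K2B against Control.

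The responses to the gel and to the hairpins were set against each other directly, since both comparisons share the Control libraries. Soft and sh_PIP4K2B differed in 5 of the 9 genes, against 30.0% of all genes tested (14.5% higher in Soft and 15.5% lower). TRPV4 is among the 5, but it passed the filter on low counts only through the Soft libraries, which fixed its place in this count. TRPV4 (3.15, SE 0.31, adjusted p = 8.08e-05, edgeR), KCNK2 (1.30, adjusted p = 0.00366), TMEM63A (0.71, adjusted p = 0.0019) and PKD1 (0.57, adjusted p = 0.00404) were higher in Soft on the log2 scale. TRPM7 was lower, at -0.91 (SE 0.13, adjusted p = 0.000485, edgeR). For the other 4, TMEM63B (0.51, adjusted p = 0.0136), PKD2 (0.21, adjusted p = 0.0778), TRPC1 (-0.70, adjusted p = 0.0435) and PIEZO1 (-0.13, adjusted p = 0.528), no difference passed. Levels did not overlap for 7 of the 9, with TRPV4 again among them, against 54.0% of all genes. Among the 9, PIEZO1 was the gene whose values were lower in all hairpin and all Soft libraries than in Control.

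The calls between Soft and sh_PIP4K2B rested in part on single libraries. PKD1 lost its call without Control replicate 2 or Soft replicate 1, 2 or 3 (adjusted p = 0.0104 to 0.0216, edgeR), KCNK2 without hairpin #1 or Soft replicate 1 or 3 (0.0103 to 0.0157) and TMEM63A without Soft replicate 2 or 3 (0.01 and 0.0107). TMEM63B gained one without hairpin #1 (adjusted p = 0.00446, edgeR), #2 (0.00984) or #3 (0.00843), and TRPC1 without hairpin #2 (0.00609). TRPM7 passed in each of the fits that left out 1 library. So did TRPV4, whose place in these fits was fixed by its high counts in Soft.

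The 3 hairpin libraries differed among themselves in which channels were low. With 1 library for each hairpin, the hairpin cannot be told apart from the spread between cultures here. PIEZO1 and TMEM63B were lowest with hairpin #1, while TRPM7, TRPC1, PKD1, TMEM63A and KCNK2 were lowest with hairpin #2. With hairpin #3 TRPM7, TRPC1, PKD1, PKD2 and KCNK2 stood above every Control library, and TRPM7 and PKD2 also did with hairpin #1.

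Other genes around these channels were read from lists of relatives, partners and calcium genes. Of 58 related channels, 14 had enough counts to be tested. In sh_PIP4K2B 1 of the 14 (7.14%, near the 5.54% of all genes) fell and 0 rose, and in Soft 3 rose and 2 fell, with median log2 fold changes of 0.21 and 0.70. KCNK6, a potassium channel of the same tandem-pore family as KCNK2, was at 65, 63.9 and 62.6 CPM in Control and fell by 0.82 on the log2 scale with the hairpins (SE 0.11, adjusted p = 0.00181, edgeR) and by 1.47 in Soft (SE 0.11, adjusted p = 1.81e-05). KCNK3, the acid-sensitive potassium channel TASK-1, rose by 2.07 in Soft (SE 0.42, adjusted p = 0.00327, edgeR), from 21.3, 21.7 and 19.1 CPM to 86.3, 89.3 and 85 CPM. TRPV2, another channel of the TRPV family, rose by 2.09 in Soft (SE 0.31, adjusted p = 0.000567, edgeR) and stood at 4.15, 4.19 and 4.65 CPM there.

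Of 18 partners that bind the channels or help to make them, 15 were tested, with 1 lower in sh_PIP4K2B (6.67%, near the 5.54% of all genes) and 1 higher and 3 lower in Soft (median log2 fold changes of -0.10 and -0.23). PACSIN3, which binds TRPV4, fell by 0.61 with the hairpins (SE 0.12, adjusted p = 0.00903, edgeR). GANAB, a glucosidase needed for the maturation of the polycystins, rose by 0.66 in Soft (SE 0.14, adjusted p = 0.00356, edgeR), and TMEM33 and the membrane scaffold gene STOM each fell by 0.99 there (SE 0.23 and 0.19, adjusted p = 0.00615 and 0.0026). STOM stood at 34.3, 32.1 and 34.6 CPM in Control, 40.3, 58 and 73 CPM with the hairpins and 17.9, 17.4 and 15.7 CPM in Soft, and the difference between the last 2 groups was -1.75 on the log2 scale (SE 0.19, adjusted p = 0.00015, edgeR). Its values lay on opposite sides of Control, though with the hairpins the difference of 0.76 did not pass (adjusted p = 0.0246, edgeR).

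Of 33 genes of calcium entry, stores and calcium-dependent signalling, 32 were tested. In sh_PIP4K2B 2 fell (6.25%, near the 5.54% of all genes) and 0 rose, and in Soft 7 rose and 5 fell (median log2 fold changes of -0.07 and -0.10). With the hairpins ITPR3, a calcium release channel of the endoplasmic reticulum, went from 296, 277 and 281 CPM to 128, 166 and 158 CPM, a fall of 0.92 (SE 0.12, adjusted p = 0.00183, edgeR), while Soft stood at 338, 383 and 361 CPM. Soft was higher than the hairpins by 1.26 for this gene (SE 0.12, adjusted p = 8.44e-05, edgeR). With the hairpins the kinase gene CAMKK2 also fell by 0.67 (SE 0.09, adjusted p = 0.00183). In Soft the calcineurin-controlled transcription factors NFATC2 and NFATC4 both rose, NFATC2 by 3.38 (SE 0.42, adjusted p = 0.000247, edgeR) and NFATC4 by 2.64 (SE 0.18, adjusted p = 1.28e-05). ORAI3, a subunit of the store-operated calcium channel, rose by 1.59 there (SE 0.27, adjusted p = 0.00127, edgeR). The 5 that fell, named after their values were seen, were SLC8A1, RCAN1, CALM2, ORAI1 and PPP3CC, at -1.40, -1.18, -1.03, -0.71 and -0.55 on the log2 scale. They include a subunit (PPP3CC) and a regulator (RCAN1) of calcineurin, and NFATC3 stood at 0.05 (adjusted p = 0.861, edgeR).

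Of 18 volume-regulated, gap junction and ATP-gated channels, 15 were tested. In sh_PIP4K2B 0 of the 15 passed with edgeR, beside 5.54% of all genes, too few genes to set the 2 apart. In Soft 1 rose and 2 fell. The median log2 fold changes were -0.24 in sh_PIP4K2B and -0.05 in Soft. P2RX4, an ATP-gated cation channel, rose by 1.79 (SE 0.21, adjusted p = 0.000167, edgeR), and LRRC8C and LRRC8D, subunits of the volume-regulated anion channel, fell by 1.13 (SE 0.20, adjusted p = 0.00171) and 0.85 (SE 0.15, adjusted p = 0.00141). In Soft 35.7% of the related channels, 26.7% of the partners, 37.5% of the calcium genes and 20.0% of this last list passed, beside 30.6% of all genes.

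**Figure D4:**
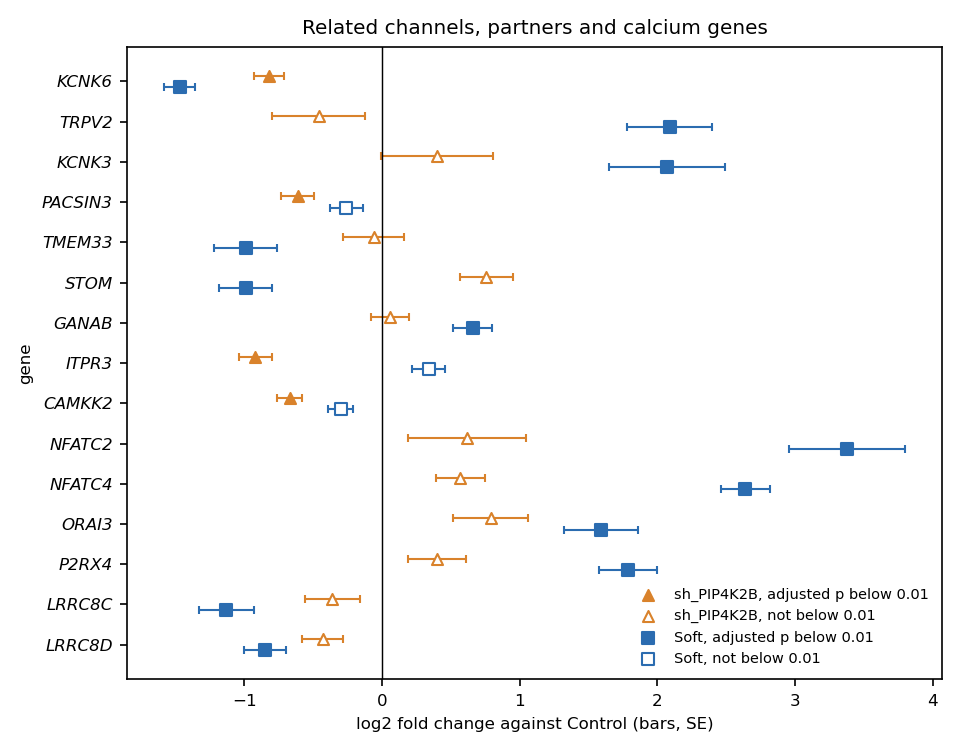
Log2 fold change against Control (x axis, bars show the SE) of the genes named from the 4 lists (y axis), with sh_PIP4K2B as triangles and Soft as squares, filled where the adjusted p was below 0.01. KCNK6 is the gene with both symbols filled, at -0.82 and -1.47.

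The genes most like the called channels over the 9 libraries were found by the Pearson r of log2 CPM among about 11692 other genes, as a description of 9 libraries that share 3 groups. For TRPV4 they were PTN (0.994), SLC6A6 (0.993) and PLEKHG4 (0.992), and for TRPM7 they were PHTF2 (0.998), VPS26A (0.997) and CAPZA2 (0.995). PKD1 was closest to TNKS1BP1 (0.995), GNL1 (0.992) and POU6F1 (0.989). TMEM63A was closest to DND1 (0.985), COL6A1 (0.982) and GPR161 (0.98), and KCNK2 to TPGS2 (0.987), TNFAIP2 (0.986) and RPS6KA2 (0.986).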

How the data were processed

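Strand-specific poly(A) libraries had been sequenced as paired reads of 75 nt, and the authors aligned them to GRCh38/hg38 with STAR; Salmon is also named in the submitters' processing notes. The deposited table holds estimated counts per gene that were not scaled between libraries, of which 11.8 to 12.7% per library were not whole. The counting settings and the annotation are not given in the sources used here. Counts were rounded, and groups were taken from the labels.

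Genes passing filterByExpr (minimum count 10, minimum total 15) were fitted in 1 model over 9 libraries by the quasi-likelihood F test of edgeR 4.0.16 (R 4.3.3, TMM scaling, two-sided), and p-values were adjusted by Benjamini-Hochberg over 13784 genes, with a threshold of 0.01. Standard errors came from the F statistic. The p-values measure the spread between these libraries, which may be technical. DESeq2 1.42.0, other filters and normalisations, a replicate block, fits of 2 groups and fits without each library were alternatives. The code was tested on simulated data.

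Levels per kb used the canonical transcript length of GENCODE. Promoter sequences came from RefSeq (GRCh38.p14), matched by symbol for 9 of 10 genes. Relatives, partners and calcium genes were named where they passed in a comparison against Control, at most 3 per list with the largest change and a group mean of at least 50 counts. The channel genes and lists were chosen with earlier results of these data known. Genes most alike were ranked by r over genes with a mean of at least 50 counts (prior count 2). Intervals of log2 fold changes come from the edgeR fit and include the spread between libraries. The interval of the TRPV4 count ratio and the floors cover counting error only.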

Additional observations from a re-analysis of the deposited data

Results flagged for a closer look

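The effects of the gel and of the hairpins differed for 5 channel genes by the direct test between Soft and sh_PIP4K2B (edgeR, adjusted p below 0.01). On the log2 scale the difference was 3.15 for TRPV4, which was near the floor of detection in both groups on glass, 1.30 for KCNK2, 0.71 for TMEM63A and 0.57 for PKD1, all higher in Soft, and -0.91 for TRPM7, lower in Soft. TRPV4 passed the filter on low counts only through the Soft libraries, which fixed its place among these 5. TMEM63A passed in this test without having passed against Control in either group.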

How the results depend on the processing

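In sh_PIP4K2B 0 of the channel genes passed in every alternative run, including DESeq2, 2066 genes of all called, and a threshold of 0.05, 2375 genes called, against 763. In Soft against Control, 4 channel genes passed, 7 with DESeq2, 9 in the fit of those 2 groups alone, 9 at a threshold of 0.05 and 1 to 8 when 1 library was left out. Without Control replicate 2 or 3 or Soft replicate 1 or 2 only TRPV4 passed, without Control replicate 1 or Soft replicate 3 TRPV4 and TRPM7 did, and without a hairpin library 7 or 8 genes did. Over all genes the count was 4217, 5447 with DESeq2, 9601 in the fit of 2 groups, 6498 at 0.05 and 2506 to 6373 without 1 library. In Soft against sh_PIP4K2B, 5 passed, 2 in the fit of those 2 groups alone and 2 to 7 without 1 library. Over all genes the count there was 4135, 2183 in the fit of 2 groups, 6372 at 0.05 and 2350 to 5374 without 1 library. In sh_PIP4K2B it was 5 in the fit of 2 groups and 66 to 2013 without 1 library. Fits with fewer libraries have fewer degrees of freedom. Their counts lay above those of the main fit in some cases and below them in others, and the cause was not tested.

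TRPV4 in Soft passed in the 16 alternatives that tested it, with adjusted p of 2.59e-07 to 0.00112, but the main filter admits it only through Soft, where it is high, and a minimum of 10 counts in every library removes it. TRPM7 in Soft against sh_PIP4K2B kept its call in all 17. Log2 values changed sign for 4 results that had not passed. In sh_PIP4K2B, PKD1 was 0.07 by library size alone and -0.15 to 0.05 without 1 library, positive without Control replicate 1 or hairpin #1 or #2. TRPC1 was 0.10 and -0.33 to 0.21, positive without Control replicate 3 or hairpin #1 or #2. TMEM63B was -0.20 to 0.03, positive without hairpin #1. PIEZO1 in Soft against sh_PIP4K2B was -0.31 to 0.01, positive without hairpin #2. Library size alone moved the median of all genes from 0.01 to 0.12 in Soft and the share of higher calls from 51.7% to 62.9%; there TRPM7 (-0.56, adjusted p = 0.0187, edgeR) and KCNK2 (1.15, 0.0102) did not pass and PKD2 did.

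No pairing by replicate number was seen in the 3 groups: deviations of same-numbered libraries correlated at -0.12 to 0.04 and of others at -0.03 to 0.07. The labels number the empty vectors of Control and Soft alike, and this check cannot exclude that same-numbered samples were paired. With the replicate block 0 channel genes passed in sh_PIP4K2B, 3 in Soft and 4 between Soft and the hairpins. PKD1 lost its call in Soft (adjusted p = 0.0123, edgeR) and 295 genes of all passed in sh_PIP4K2B.

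Depth limits the low genes most: 3 counts are 0.131 to 0.148 CPM, so PIEZO2 and the glass values of TRPV4 cannot be ordered. Of 30 group levels, 26 moved by less than 1 SD without TMM.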
